A study of Mus musculus with 4 samples.

Results

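The genes described are Cd79a, Cd79b, Blk, Ms4a1, Cd22, Cd37, Fcer2a, Pax5 and Ebf1, which together mark B cell identity. They were chosen by name, and their probes were found through the gene name or the RefSeq accession on the array. All 9 were present, with 14 probes, among 27670 genes. Each gene is represented by its brightest probe, and 5 of the 9 had a second probe.

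B cells make antibodies and carry an antibody molecule on their surface as the B cell receptor. Receptor signals pass through the paired chains encoded by Cd79a and Cd79b to kinases of the Src family, one of which is encoded by Blk. The transcription factors encoded by Ebf1 and Pax5 commit precursors to the B lineage and keep many of its genes on, among them Cd79a. Spleen is a large store of mature B cells, while liver tissue is mostly hepatocytes.

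RNA came from spleen and liver of male C57BL/6J mice, 7 weeks old, on a nucleoprotein diet or on a control diet. The nucleoprotein diet was a purified diet with 1.2% of a nucleoprotein product (0.5% nucleic acids). Per the design text, the control diet was the purified diet low in nucleoprotein (0.03% nucleic acids). The growth protocol names a standard chow, and the design text was followed. Both diet groups ate for 4 weeks and then were given 10 mg/kg of lipopolysaccharide (LPS, an inflammatory part of the outer membrane of bacteria). Organs were taken 6 h later, so both the nucleoprotein and the control pools came from LPS-treated mice. RNA was pooled by diet, and the 2 pools of an organ were hybridised together on 2 arrays, with nucleoprotein in Cy5 on replicate 1 and in Cy3 on replicate 2. The labels do not say whether replicates 1 and 2 used the same pools. They were treated as 1 pool per diet and organ. A diet difference therefore had no biological replicates and got no test, and the SD of the 2 arrays stands for error of labelling and hybridisation only. How many mice made up each pool is not stated in the labels, and all 4 arrays lay on 1 slide.

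Hepatocyte markers followed the organs named in the labels of the arrays. All 12 were brighter on the liver arrays, with every liver value over 1 log2 unit above every spleen value. The same rule was passed by 11.5% of the 19240 genes measurable in either organ. Hepatocyte and pancreatic transcripts differed between the diets within the same spleen pools. Of 11 measurable hepatocyte markers 6 passed 1.5-fold on both arrays and were higher with nucleoprotein, against 0.209% of 18141 measurable spleen genes. Fgg at a log2 ratio of 2.21 and Mup1 at 2.20 were highest. The summed level of the hepatocyte markers was 5495 to 5874 in the nucleoprotein channels and 1716 to 1879 in the control channels. Of 12 pancreatic acinar markers 11 passed 1.5-fold and were lower, against 0.226% of measurable spleen genes. Reg1 at -1.38 and Amy2 at -1.34 were lowest. The summed level of the acinar markers was 10086 to 11222 in the nucleoprotein channels and 24391 to 25481 in the control channels. In liver all 12 acinar markers passed it and were lower, against 0.317% of 16415 measurable liver genes. Their summed level there was 5170 to 5766 in nucleoprotein and 107608 to 108710 in control channels. The part of the hepatocyte and pancreatic transcripts in the B cell values below was not tested.

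Probes are oligonucleotides of 60 bases, and the letters of 7 of them are shown to identify what was measured. For Cd22, Pax5 and Ebf1, the organ difference given further on differed between the probes of the gene. Positions are those of the files, on mouse build mm7. In 4 of the 7 the stated genomic interval was longer than the probe. Whether these probes join exons was not checked, since no annotation of that build was used here. The interval was 258 bases for Cd79a (chromosome 7, 21688822 to 21689079, plus strand), 1138 for Blk (chromosome 14, 58242375 to 58243512, minus strand), 1325 for the second probe of Cd22 (chromosome 7, 27815904 to 27817228, minus strand) and 32555 for the second probe of Pax5 (chromosome 4, 44551296 to 44583850, minus strand). The first probe of Cd22 (chromosome 7, 27806351 to 27806410) and the probes of Cd37 (chromosome 7, 41411214 to 41411273 and 41411138 to 41411197) each lay in 1 stretch on the minus strand.
Cd79a A_52_P651316: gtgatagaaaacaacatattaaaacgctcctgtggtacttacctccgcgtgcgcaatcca
Blk A_52_P15405: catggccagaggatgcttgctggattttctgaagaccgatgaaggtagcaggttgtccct
Cd22 A_51_P448140: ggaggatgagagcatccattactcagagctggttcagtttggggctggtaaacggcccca
Cd22 A_52_P466268: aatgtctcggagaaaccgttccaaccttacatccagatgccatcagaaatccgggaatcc
Cd37 A_52_P463373: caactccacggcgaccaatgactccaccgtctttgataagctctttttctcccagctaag
Cd37 A_51_P350752: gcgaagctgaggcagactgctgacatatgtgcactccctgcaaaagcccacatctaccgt
Pax5 A_51_P122855: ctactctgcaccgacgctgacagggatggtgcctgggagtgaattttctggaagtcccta

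The first comparison asked whether nucleoprotein in the diet altered the B cell genes of spleen after lipopolysaccharide. None of the 9 genes passed 1.5-fold in the same direction on both arrays, against 0.435% of the 18141 measurable spleen genes (0.209% higher and 0.226% lower with nucleoprotein). Their median log2 ratio, nucleoprotein over control, was -0.02 (-0.10 on replicate 1 and 0.01 on replicate 2), beside 0.00 over all measurable genes. The lowest of the 9 was Cd79a at -0.25 ± 0.14 and the highest Fcer2a at 0.09 ± 0.06 (SD of the 2 arrays, here and below). All 9 were well above background in all 4 spleen channels. Fewer B cells and less RNA per B cell cannot be told apart in such pools.

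The chains of the receptor's signalling unit had the lowest ratios of the set. Cd79a, which encodes the alpha chain, had log2 levels of 7.92 and 7.78 in the nucleoprotein pool of spleen, against 8.07 and 8.12 in the control pool (replicates 1 and 2). Cd79b, the beta chain (chromosome 11, 106420507 to 106420566, minus strand), had 13.36 and 13.61 with nucleoprotein, against 13.68 and 13.77 in control. In both genes the 2 nucleoprotein values lay below the 2 control values. The ratio of Cd79a was -0.14 on replicate 1 and -0.35 on replicate 2, a mean of 0.844-fold. That of Cd79b was -0.32 and -0.16, a mean of -0.24 ± 0.11 or 0.848-fold. Both were under the 1.5-fold bound on each array and were not called. Ratios lower than that of Cd79a were found for 1.47% of measurable spleen genes, and lower than that of Cd79b for 1.60%. Under the processing alternatives that kept both arrays the ratio of Cd79a ranged from -0.32 to -0.24, and that of Cd79b stayed at -0.24. Leaving out an array only returns the single-array ratios given above.

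Blk, the Src-family kinase, stood at 7.75 and 7.87 with nucleoprotein, against 7.92 and 7.88 in control. Its ratio was -0.17 on replicate 1 and -0.01 on replicate 2, a mean of -0.09 ± 0.11. The values of the 2 diets did not overlap, although on replicate 2 they were nearly equal.

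The surface molecules of mature B cells had a median ratio of -0.01, beside -0.24 for Cd79a, Cd79b and Blk. Ms4a1 encodes CD20, the membrane protein that therapeutic anti-B cell antibodies bind, and its brightest probe (chromosome 19, 10931002 to 10931061, minus strand) read 14.24 and 13.99 in the nucleoprotein pool of spleen, against 14.20 and 14.02 in the control pool. The ratio was 0.00 ± 0.06, and its second probe (chromosome 19, 10931462 to 10931521) gave 0.00 on both arrays. The values of the diets overlapped. Cd22, an inhibitory co-receptor that binds sialic acid, read 11.91 and 11.95 with nucleoprotein, against 12.06 and 11.84 in control. Its ratio was -0.15 on replicate 1 and 0.11 on replicate 2, so the direction differed between the arrays, and the second probe gave -0.02 ± 0.03.

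Cd37, a tetraspanin of leukocyte membranes that is abundant on mature B cells, read 8.86 and 8.87 with nucleoprotein, against 8.96 and 8.82 in control. Its 2 probes gave -0.03 ± 0.10 and 0.01 ± 0.11, and neither kept a direction over the arrays. Fcer2a encodes CD23, the low-affinity IgE receptor typical of follicular B cells (chromosome 8, 3644433 to 3644492, minus strand), and read 9.42 and 9.39 with nucleoprotein, against 9.28 and 9.34 in control. It was the only member whose nucleoprotein values all lay above the control values, at 0.13 and 0.05 on the 2 arrays, a difference of 1.06-fold.

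The lineage transcription factors had a median ratio of 0.00. Pax5 (chromosome 4, 44538878 to 44538937, minus strand) read 12.04 and 11.93 with nucleoprotein, against 12.08 and 11.92 in control, a ratio of -0.01 ± 0.03. Ebf1 (chromosome 11, 44961616 to 44961675, plus strand) read 8.46 and 8.67 with nucleoprotein, against 8.48 and 8.62 in control, a ratio of 0.01 ± 0.04. For both genes the diets overlapped and the mean differed by less than the spread of the 2 arrays. Second probes gave -0.08 ± 0.06 for Pax5 and 0.14 ± 0.02 for Ebf1 (chromosome 11, 44605869 to 44605928), where the 2 probes of the gene differed by more than their SDs.

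**Figure D1:**
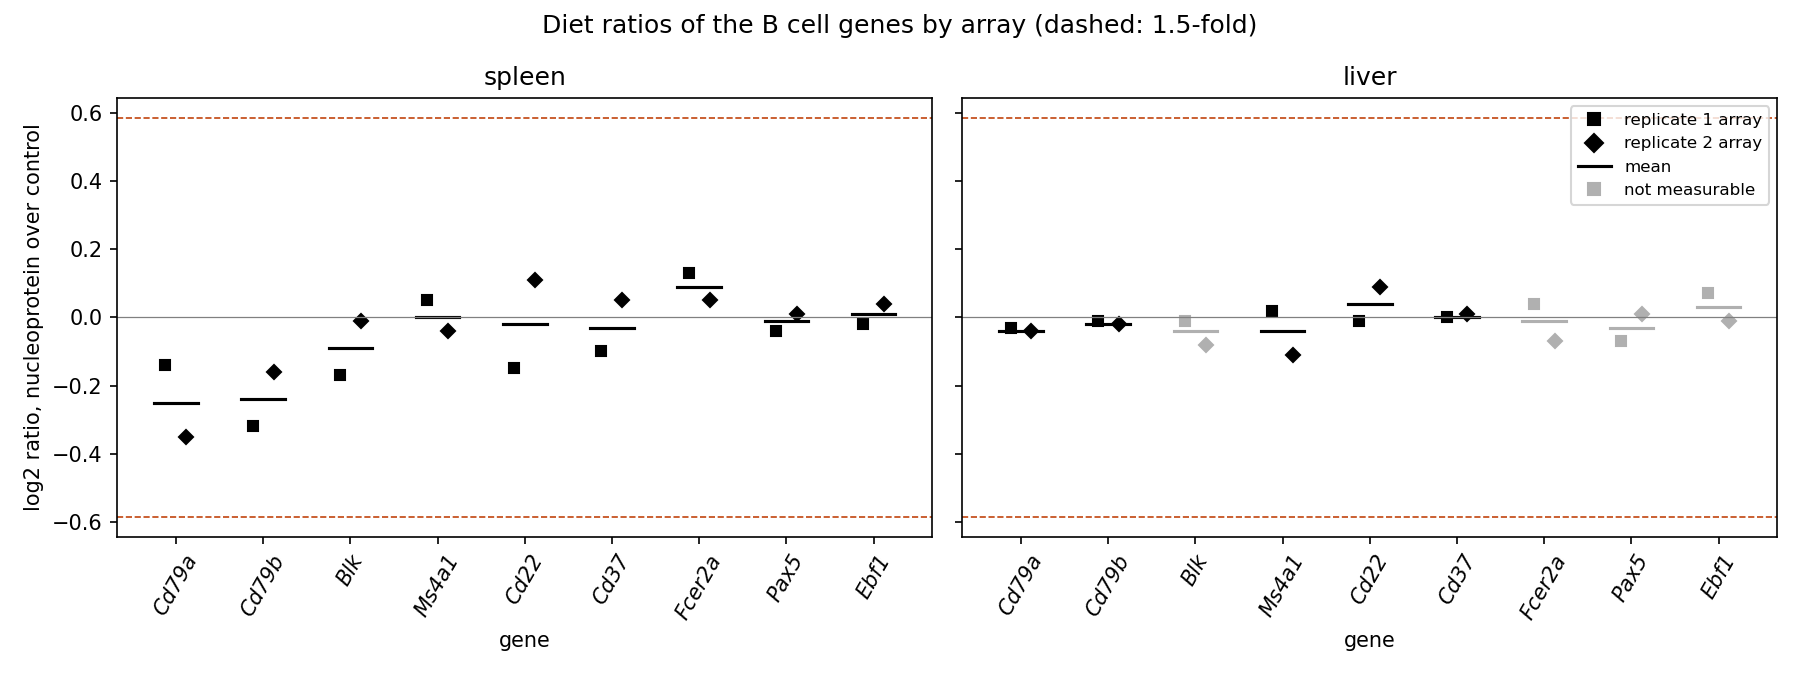
Log2 ratio of nucleoprotein over control (vertical axis) for each B cell gene (horizontal axis) in spleen, left, and liver, right. Squares are replicate 1 arrays, diamonds replicate 2 arrays, bars their mean, grey symbols genes that were not measurable, and dashed lines 1.5-fold. All points lie inside the dashed lines, and Cd79a and Cd79b in spleen lie lowest at means of -0.25 and -0.24.

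Across the set in spleen, the nucleoprotein values lay wholly below the control values in 3 members, Cd79a, Cd79b and Blk, as they did in 11.0% of measurable genes. They lay wholly above in 1 member, Fcer2a, as in 10.6% of measurable genes, and overlapped in the other 5. The log2 ratio on replicate 1 minus that on replicate 2, divided by 2, was -0.13 for Cd22, 0.10 for Cd79a and -0.08 for Cd79b. With 1 array per orientation, an effect of the Cy5 label in these values cannot be told apart from other differences between the arrays. Averaging the 2 orientations balances a label effect.

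In liver the same comparison rested on weak signals. Cd79a, Cd79b, Ms4a1, Cd22 and Cd37 were measurable, since 1 or both diets gave a signal well above background on each of the 2 arrays. None of these 5 was called, against 0.329% of 16415 measurable liver genes (0.0122% higher and 0.317% lower), and their median ratio was -0.02, beside 0.01 over all measurable genes. Cd79b, at -0.02 ± 0.01, read 7.52 and 7.42 with nucleoprotein, against 7.53 and 7.44 in control. Cd79a was at -0.04 ± 0.01, Ms4a1 at -0.04 ± 0.09, Cd22 at 0.04 ± 0.07 and Cd37 at 0.00 ± 0.00. An offset of 50, added to all signals after background correction, narrows the ratios of such dim probes. The small ratios and the lack of calls therefore carry little weight. With the deposited log ratios Cd22 was at 0.20, Ms4a1 at -0.13, Cd79b at -0.07, Cd79a at -0.06 and Cd37 at 0.01. The diets overlapped in all 5, while nucleoprotein values lay wholly below control in 6.63% of measurable liver genes and wholly above in 10.1%. Blk, Fcer2a and Ebf1 were not well above background in any of the 4 liver channels, and Pax5 was so only in the Cy5 channel of each array, so no diet ratio is given for them.

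The second comparison set the levels of the organs side by side, each organ with 4 channels (2 pools on 2 arrays). By their brightest probes all 9 genes were brighter in spleen. The lowest spleen value of each lay over 1 log2 unit above its highest liver value. The same held for 14.4% of the 19240 genes measurable in either organ. The second probes of Pax5 and Ebf1 did not pass this rule, with smallest gaps of 0.57 and 0.73. The median difference of the 9 genes, spleen minus liver, was 3.21 log2 units, beside 0.09 over all genes measurable in either organ. It is the measured value of Fcer2a, which was above background in no liver channel, so it is best read as a lower bound, and it was 4.35 with an offset of 10 and 6.51 with processed intensities. At the offset of 50 used here Ms4a1 differed most, at 14.11 ± 0.13 in spleen and 7.07 ± 0.06 in liver (SD of 4 channels), a difference of 7.04 or 132-fold. Cd79b followed at 13.60 ± 0.17 in spleen and 7.48 ± 0.06 in liver, a difference of 6.13. Pax5 passed Cd79b with an offset of 10 (6.66 against 6.54) and passed Ms4a1 with processed intensities (7.94 against 7.72).

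Pax5 stood at 11.99 ± 0.08 in spleen and 6.35 ± 0.04 in liver, and Cd22 at 11.94 ± 0.09 in spleen and 6.57 ± 0.04 in liver. Their differences were 5.64 for Pax5 and 5.38 for Cd22. Cd22 was above background in all 4 liver channels, but Pax5 in only 2 of 4, so the liver value of Pax5 and its difference are uncertain. Cd37 stood at 8.88 ± 0.06 in spleen and 6.87 ± 0.13 in liver, a difference of 2.01. Cd79a had the smallest difference at this offset, 1.53, at 7.97 ± 0.16 in spleen and 6.44 ± 0.03 in liver. With processed intensities Cd37 was lower, at 3.19 against 3.37 for Cd79a. For the genes below background in liver the fold is a lower bound, taken against the lowest signal of probes well above background or the probe's own, whichever was higher. Fcer2a was at least 9.19-fold higher in spleen, Ebf1 at least 5.53-fold and Blk at least 3.12-fold. Their measured levels were 9.36 ± 0.06 in spleen and 6.15 ± 0.03 in liver for Fcer2a, 8.56 ± 0.10 in spleen and 6.08 ± 0.06 in liver for Ebf1, and 7.86 ± 0.07 in spleen and 6.19 ± 0.11 in liver for Blk. In every member the order was the same, with both spleen pools above both liver pools, while the 2 diets within an organ differed by at most 0.25.

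**Figure D2:**
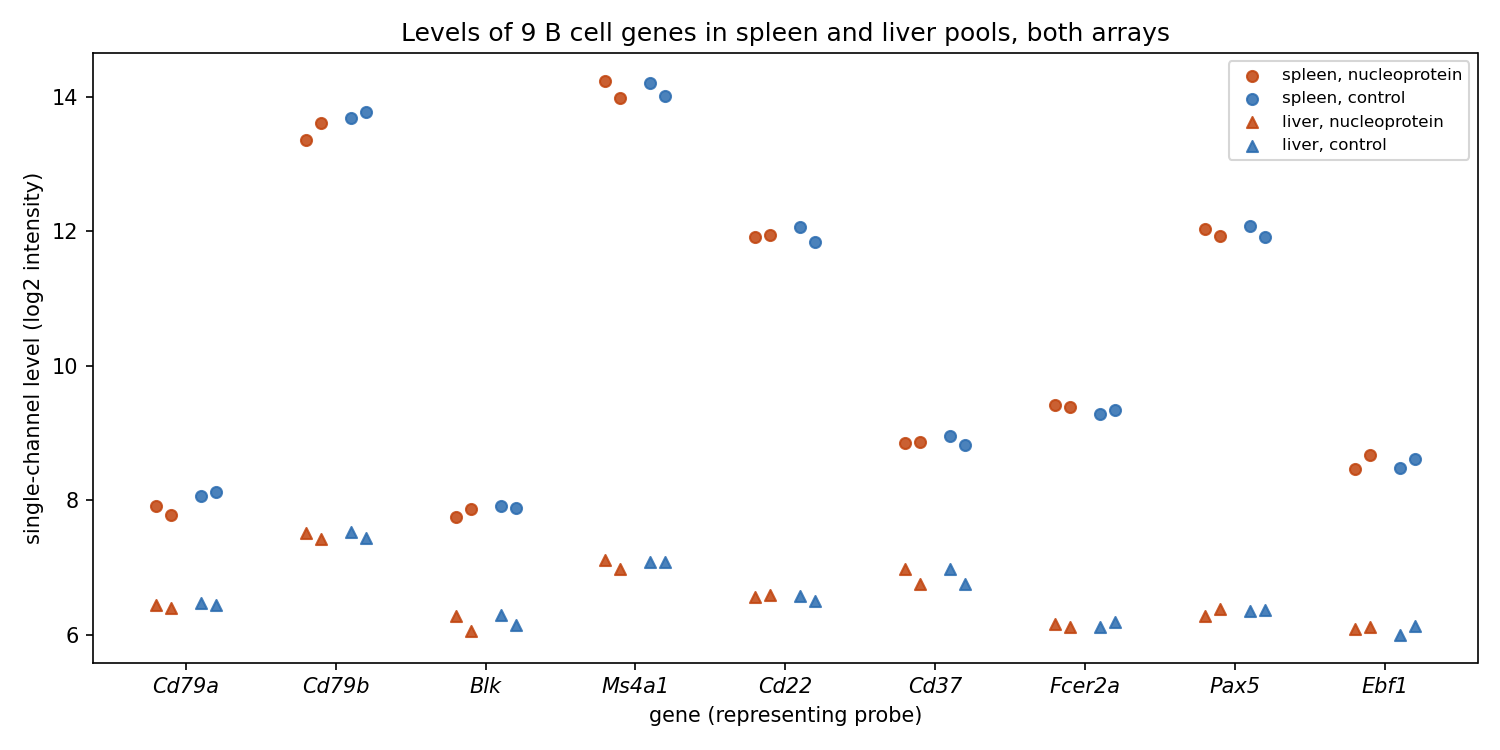
Single-channel log2 level (vertical axis) of the representing probe of each B cell gene (horizontal axis), circles for spleen and triangles for liver, with nucleoprotein in orange left of control in blue and both arrays shown. The spleen values of every gene lie above its liver values, from a smallest gap of 1.30 for Cd79a to 6.87 for Ms4a1. Levels of different genes come from different probes and are not comparable with each other.

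The measured organ difference varied with the probe and with the processing. Cd22 gave 5.38 with its first probe. Its second probe was above background in no liver channel, so its measured 1.29 is not exact, and it was at least 2.33-fold higher in spleen. Pax5 gave 5.64 with its first probe and 0.67 with its second, each above background in 2 of 4 liver channels. The second probe of Pax5 read 98.4 to 212 raw intensity units in spleen and 60.3 to 71.2 in liver, and that of Cd22 120.0 to 283 in spleen and 53.0 to 55.4 in liver. The first probe of Pax5 read 2531 to 9255 in spleen and 58.4 to 72.8 in liver.

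An offset of 50 added after background correction narrows differences of dim probes. With an offset of 10 the second probe of Cd22 gave 2.30, and with the deposited processed intensities it gave 4.97. The processed intensities also had another background correction and another scaling of the channels, so the part of the offset in that change was not tested. The single probe of Cd79a gave 1.53, 2.18 and 3.37 under the same 3 settings, and that of Blk 1.66, 2.57 and 4.99. The first probe of Ms4a1, with bright spleen signal, moved less, at 7.04, 7.62 and 7.72. The 2 probes of Cd37 gave 2.01 and 2.00 at an offset of 50, 2.52 and 2.71 at an offset of 10, and 3.19 and 3.85 with processed intensities.

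**Figure D3:**
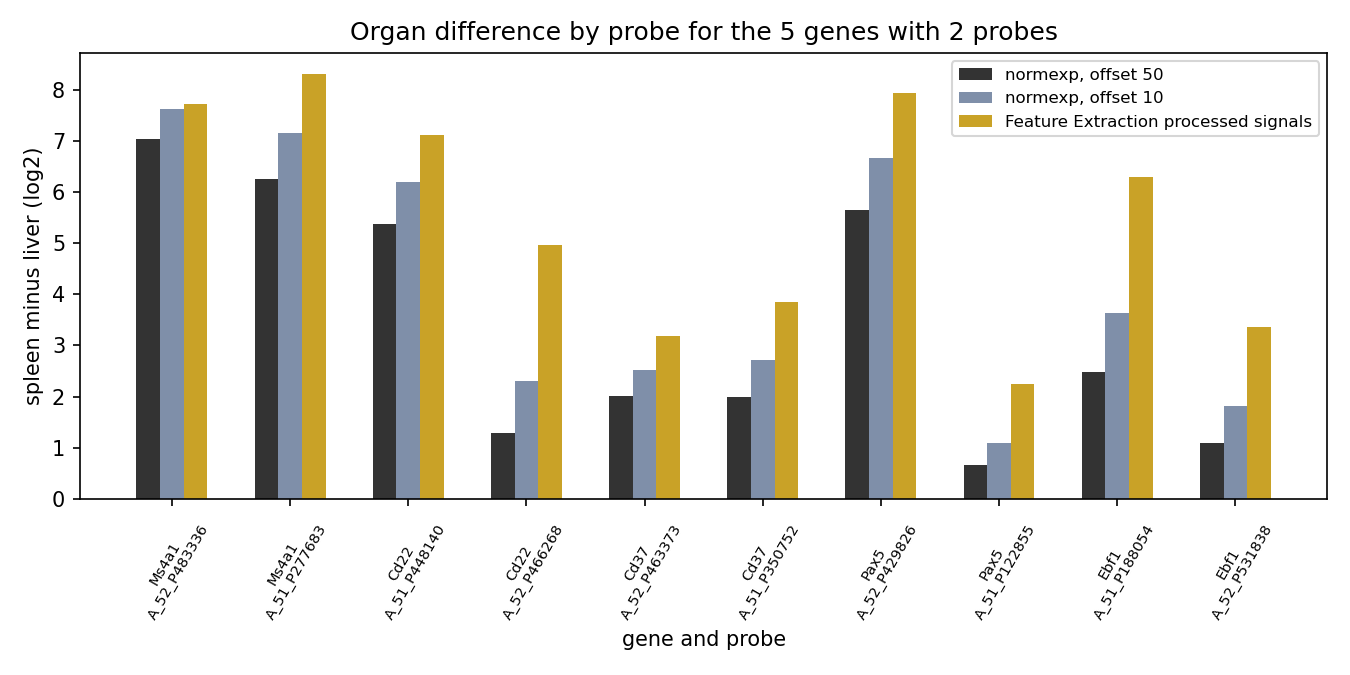
Spleen minus liver difference in log2 level (vertical axis) for each probe of the 5 genes with 2 probes (horizontal axis), under an offset of 50, an offset of 10 and the deposited processed intensities. Bars of Cd22 and Pax5 differ between their own probes at every setting, from 5.38 against 1.29 for Cd22 and 5.64 against 0.67 for Pax5 at an offset of 50, where the liver signal of the second Cd22 probe was not above background and that of both Pax5 probes was so in 2 of 4 channels.

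Other B cell genes were read in the same way, by lists of known B cell functions. Of 15 measurable genes of receptor signalling none was called in spleen, and their median was -0.03. Btk, the kinase whose loss causes agammaglobulinaemia, stood apart at 0.65 ± 0.20, with 0.50 on replicate 1 and 0.79 on replicate 2, so it passed 1.5-fold on 1 of the 2 arrays, and Cd72 stood at 0.12 ± 0.10. Of 13 further surface and cytokine receptor genes none was called, with a median of 0.01. The lowest, Fcmr, an IgM-binding receptor, read -0.26 and -0.30, and Cd74, the invariant chain of antigen presentation, stood at -0.17 ± 0.16. Of 11 further B cell transcription factors none was called, with a median of -0.01, and Spi1, which encodes PU.1 and is shared with myeloid cells, was lowest at -0.20 ± 0.18, with Bach2 at -0.14 ± 0.15. Immature B cell genes had a median of -0.01 over 7 and marginal zone genes -0.04 over 5, again with none called. The values furthest from 0 among the immature genes were those of Dntt (0.17 ± 0.17) and Vpreb3 (0.08 ± 0.03). Among the marginal zone genes they were those of Cd9 (-0.08 ± 0.01) and S1pr3 (-0.07 ± 0.12). Other probes measurable in spleen gave 0.02 and -0.05 for Dntt, 0.02 for Vpreb3, 0.08 for Cd9 and -0.03 for S1pr3. In liver none of these 5 lists had a called member.

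**Figure D4:**
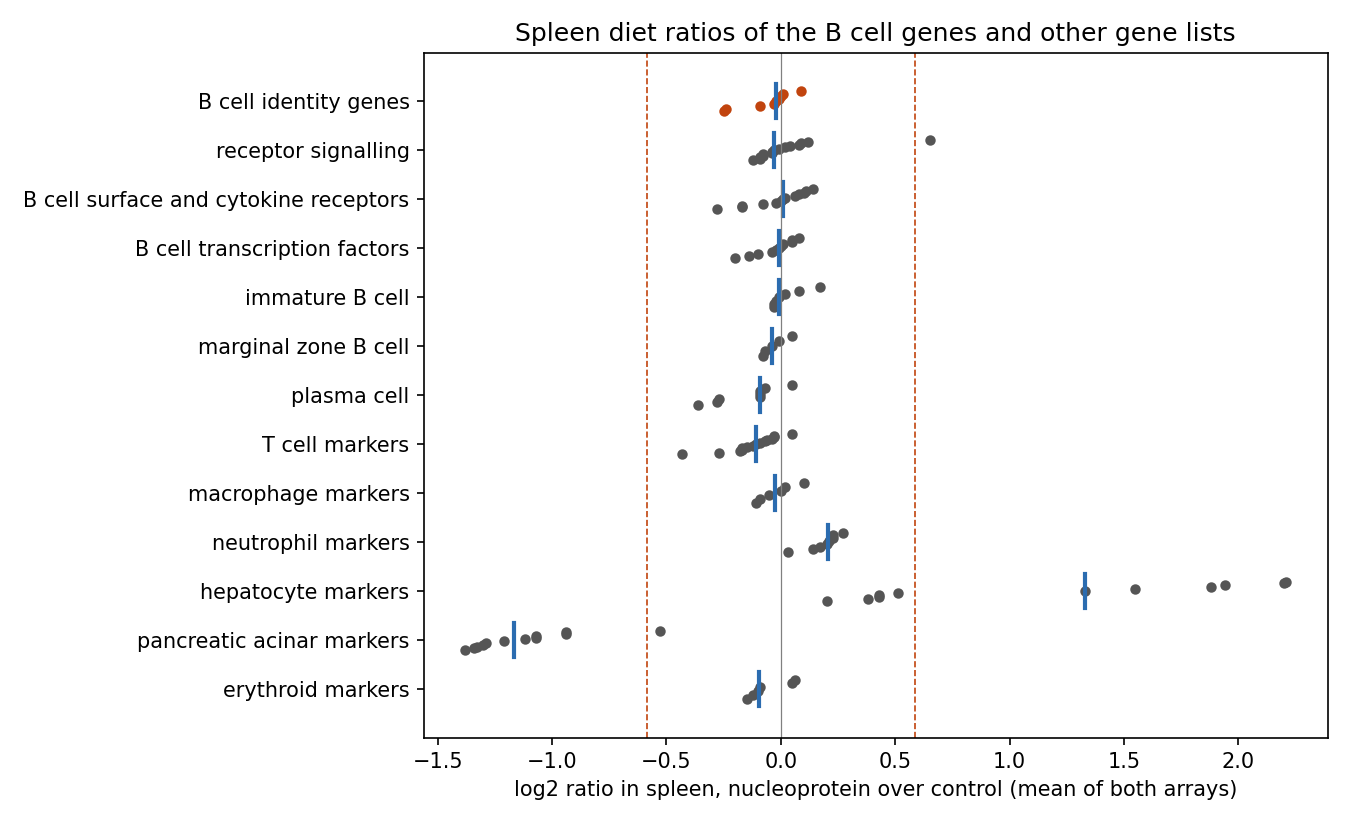
Log2 ratio of nucleoprotein over control in spleen (horizontal axis, mean of both arrays) for each measurable gene of the B cell set, in orange, and of other gene lists, in grey, by list (vertical axis). Blue bars are list medians and dashed lines 1.5-fold. The B cell set lies between -0.25 and 0.09, while hepatocyte markers have a median of 1.33 and pancreatic acinar markers one of -1.17.

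The 5 genes outside all lists whose 8 channel levels, centred on their own mean, lay nearest to the mean of the B cell set were Sema3g, AB056117, Laptm5, Bcat1 and H2-Aa, out of 16692 candidates. Their Euclidean distances ran from 0.139 to 0.208 log2 units. Their spleen minus liver differences were 3.80 to 3.97, beside a mean of 3.90 for the set. The differences of the members ran from 1.53 (Cd79a) to 7.04 (Ms4a1), so a gene near this mean need not resemble any member. The spleen diet ratios of the 5 genes lay between -0.13 and 0.06. The 8 channels come from 2 organs and 2 diets, so few independent points stand behind this likeness.

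As all 9 genes were brighter in spleen than in liver, their promoters were searched for short motifs on both strands. RefSeq promoters of assembly GRCm38.p6, 250 bases before to 50 after the start, were held for 6 of the 9, namely Cd79a, Cd22, Cd37, Fcer2a, Pax5 and Ebf1 (9 promoters). The palindromic core to which EBF1 binds is TCCC and GGGA with 2 bases between them. It was in 1 of these 9 promoters (Cd22) and in 0.904% of all 32851 promoters of this length. GAGGAA, a core of PU.1 sites, was in 3 of the 9 (Cd79a, Cd37 and Ebf1) and in 28.3% of all. The octamer ATGCAAAT was in 0 of the 9, and in 1.74% of all. None of these motifs is contained in another. The Cd22 match lay 49 to 40 bases before the start, shown in capitals on the minus strand of chr7:30879029-30879117.
Cd22 promoter: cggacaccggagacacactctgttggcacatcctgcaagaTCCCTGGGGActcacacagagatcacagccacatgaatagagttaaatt
A match is a description of the letters and not evidence of binding.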

How the data were processed

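Spleen and liver RNA, pooled by diet, was measured on 4 Agilent two-colour arrays of 45018 spots (43379 gene spots, 41174 probes). Images were read by Agilent's Feature Extraction software, version 9.5.3.1 in the submitters' processing notes and version 9.5.1.1 per the file headers. Per the file headers, the deposited values were mean and background intensity in both channels, processed intensity after background subtraction and dye normalization, and a log10 ratio of red over green. The authors' series value table had no stated unit and was taken as a score: without its sign it equalled red divided by green, to 0.02 on the log2 scale, at 99.849% or more of gene spots well above background in both channels. It was uncentred, with column medians of -0.92, 0.92, -0.96 and 0.96 (liver 1 and 2, spleen 1 and 2). A minus sign stood before every replicate 1 value, for an unknown reason.

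Background was corrected by normexp with an offset of 50 and ratios normalized by loess within arrays (limma 3.58.1, R 4.3.3), with controls at weight 0. Outlier spots (189 to 354 per array) were left out, and 0 gene spots were saturated. Single-channel levels came from Aquantile scaling. The share of gene spots well above background was 55.2% to 66.8% in Cy3 and 66.5% to 72.8% in Cy5. Precision was limited by the number of arrays. Probes were named by accession (22944), symbol (6664) or synonym (3108) through a RefSeq table of GRCm38.p6, and 8458 kept the file's name.

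A gene was measurable where each array had a signal well above background for the same diet, and called when its log2 ratio passed 1.5-fold (0.58) in the same direction on both arrays. The steps were tested on simulated data with known ratios. Those ratios were planted only in bright probes and were larger than any of the members. The simulation therefore says nothing about small ratios or dim probes. The members, lists and rules were chosen with earlier results of these data known. Named were all members with all probes, for each other list its counts and the 2 genes with the largest absolute spleen ratio, and the 5 genes of most similar pattern; called marker genes are given as counts. Alternatives were another offset, median centring, deposited ratios and the authors' table, filters, quantile scaling, mean over probes and leaving out each array. For levels, the deposited processed intensities were also used, with each channel scaled to its 75th percentile in place of loess and Aquantile.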

Additional observations from a re-analysis of the deposited data

How the results depend on the processing

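No B cell gene was called in spleen or liver under any of the 9 diet alternatives, and the count stayed at 0. Leaving out each replicate put the spleen median between -0.10 and 0.01, and the liver median between -0.02 and -0.01. The liver median was -0.06 with Feature Extraction log ratios and with the authors' table, 0.03 with median centring (under which all liver genes had a median of 0.17), -0.01 for genes well above background in both channels, and 0.00 with the mean over probes. The cause was not tested. The median organ difference was 4.35 with an offset of 10, where less is added to dim signals, and 3.21 with either replicate left out. It was 6.51 with processed intensities, which had another background correction and another scaling of the channels. All 9 members were brighter in spleen under 6 of 7 organ alternatives. Of all genes, from 11.9% (mean over probes) to 21.2% (processed intensities) passed under those 6. With median centring 8 members passed, without Cd79a, beside 7.35% of all genes. Over all spleen genes the counts of higher and lower calls were 38 and 41, against 65 and 54 with an offset of 10, 102 and 80 with deposited log ratios, 102 and 78 with the authors' table, 29 and 10 with median centring, and 51 and 88 without replicate 1 or 58 and 58 without replicate 2. Over all liver genes they were 2 and 52, against 3 and 57, 28 and 107, 28 and 107, 0 and 32, 30 and 260, and 196 and 98 under the same settings. No paired analysis was possible because the values come from no test, and each ratio already sets the diets side by side within an array. If each diet had 1 pool per organ, as assumed, shifts such as those of Cd79a and Cd79b have no error between mice beside them.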

Other observations

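Other lymphoid and myeloid lists in the same spleen pools had no called gene. Over all measurable genes the median ratio was 0.00 in spleen (quartiles -0.05 and 0.05) and 0.01 in liver (quartiles -0.04 and 0.07). Genes of a list were read in the same pools and are not replicates of a diet. Of 15 measurable T cell markers 14 had ratios below 0, at a median of -0.11, made up of -0.05 on replicate 1 and -0.17 on replicate 2. Thy1, a surface glycoprotein of T cells, stood at -0.43 ± 0.01 with its brightest probe and at -0.19 with its other probe, and Cd5 at -0.27 ± 0.02. Of 8 plasma cell genes 7 were below 0, with a median of -0.09, and Mzb1, a chaperone of antibody assembly, read -0.49 and -0.22, with Derl3 at -0.28 ± 0.16. Neutrophil markers were above 0 in 8 of 8 measurable genes in spleen, with a median of 0.20 (0.15 and 0.19), and in 8 of 8 in liver, with a median of 0.22. In spleen Ngp, a granule protein, stood at 0.27 ± 0.30 and Ltf, which encodes lactoferrin, at 0.23 ± 0.25, while Retnlg at 0.21 ± 0.01, Mmp8 at 0.20 ± 0.02 and S100a8 at 0.14 ± 0.06 repeated more closely between the arrays. The last 3 were named after their values were seen. Summed neutrophil levels in spleen were 53909 to 56168 with nucleoprotein and 44045 to 51119 in control. Macrophage markers had a median of -0.02 over 6 genes (Cd5l -0.11, Cd163 0.10) and erythroid markers one of -0.09 over 6 (Klf1 -0.15, Epb42 -0.12). The other probe of Epb42 gave 0.06.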
